A study of Mus musculus with 6 samples.

Results

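The cytosolic ribosomal proteins build the small (40S) and large (60S) subunits of the ribosome that reads messenger RNA in the cytosol. Their genes were taken by symbol, as Rpl or Rps followed by a digit together with Rplp0, Rplp1, Rplp2 and Rpsa. S6 kinase genes, Rps27l, Rps19bp1 and annotated pseudogenes were left out, and a mean of at least 5 CPM (a gene's counts scaled by the total of its library) over the libraries was required. This gave 81 of the 56884 genes counted, 33 named for the 40S and 48 named for the 60S subunit. Before the level was applied 88 genes met the rule, and 7 fell below it. The 3 genes just inside had mean levels of 5.54 CPM (Rps23rg1), 10.9 CPM (Rpl23a) and 11.3 CPM (Rps27rt), and the 3 just outside 4.86 CPM (Rps10), 0.53 CPM (Rpl24) and 0.40 CPM (Rpl36al). The members were selected on symbol and on their mean CPM in these same 6 libraries, and their joint lower level in treated cells was known beforehand, so counts and medians over them are descriptions.

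The 6 libraries were RNA sequencing libraries of mouse small intestinal organoids, epithelial cultures that hold stem cells and their progeny. All organoids, controls included, carried Villin-CreERT2, Lgr5-EGFP-IRES-CreERT2 and Ythdf2fl/fl. CreERT2 is a recombinase that 4-hydroxytamoxifen (4-OHT) switches on, here in villin-expressing epithelium and in Lgr5-expressing stem cells, and the floxed Ythdf2 gene encodes a reader of N6-methyladenosine that promotes decay of marked messenger RNAs. Organoids received 0.5 µM 4-OHT or ethanol (EtOH), and Lgr5-GFP+ cells were sorted on day 4 or day 6. Day 6 had 2 libraries per treatment and day 4 had 1, and neither the number nor the age of the source mice is given in the sources used here. The labels do not say whether replicates came from separate cultures, so p-values measure the spread between these libraries, which may be technical.

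Ribosomal protein messages are among the most abundant in dividing cells, and most of their products are needed in equal numbers. Many of them begin with a cytosine followed by a run of pyrimidines, the 5′ terminal oligopyrimidine tract, through which mTORC1 and the binding protein LARP1 control their translation and stability. In the intestinal crypt, fast-dividing stem and progenitor cells make large numbers of ribosomes. Ribosomal protein genes have also left many processed copies in the mouse genome, intronless pseudogenes made from their messages, and a read that matches several copies equally cannot be placed in 1 gene.

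The start regions of 6 members are shown, to show the pyrimidine letters CTCTTT at the start (Rpl35, Rps6 and Rpl28), a few bases after it (Rpl18 and Rps26) and a window that does not hold them (Rplp0). They run from 30 bases before to 20 bases after the annotated start, 5′ to 3′ on the coding strand, from RefSeq on GRCm38.p6. Capitals mark CTCTTT or CTTTCC, which overlap in CTCTTTCC.
Rpl35 (chr2:39005112-39005161, minus strand): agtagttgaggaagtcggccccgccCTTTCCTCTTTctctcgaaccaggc
Rps6 (chr4:86857348-86857397, minus strand): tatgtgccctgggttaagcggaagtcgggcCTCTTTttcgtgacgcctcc
Rpl28 (chr7:4792935-4792984, plus strand): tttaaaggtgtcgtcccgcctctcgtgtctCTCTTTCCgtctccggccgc
Rpl18 (chr7:45718041-45718090, plus strand): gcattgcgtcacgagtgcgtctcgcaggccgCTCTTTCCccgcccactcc
Rps26 (chr10:128626487-128626536, minus strand): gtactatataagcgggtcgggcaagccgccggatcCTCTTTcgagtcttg
Rplp0 (chr5:115559437-115559486, plus strand): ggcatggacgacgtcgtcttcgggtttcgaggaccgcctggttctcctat
In Rpl35, Rps6 and Rpl28 the letters CTCTTT began exactly at the annotated start, in Rpl18 at base 2 and in Rps26 at base 6, counted from 1 at the start. The window of Rplp0 held neither CTCTTT nor CTTTCC. Other runs of pyrimidines were not searched.

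Windows of 300 bases, from 250 before to 50 after a start, were listed for 59 of the 81 members. Among the 22 members not in the table were Rpl17, Rpl21, Rpl23a, Rpl29, Rpl3, Rpl30, Rpl32, Rpl35rt, Rpl36, Rpl7, Rpl8, Rplp1, Rps14, Rps20, Rps27a, Rps29 and Rps4l. On the coding strand, between 30 bases before and 50 after the start, CTCTTT was present in 19 of the 59 members (32.2%), against 3.57% of the 27025 genes in the table. CTTTCC was present there in 17 members (28.8%), against 4.36% of all genes, and 8 members held both. Read on the opposite strand, CTCTTT was found in 1 of the 59 members (1.69%), against 3.64% of all genes. It began exactly at the annotated start in 4 members (Rpl28, Rpl35, Rpl35a and Rps6), 6.78% of those listed, and in 28 genes of the whole table (0.104%). Over the 300 bases and both strands, CCGGAAG, letters that ETS-family factors bind, was present in 23 members (38.98%), against 9.93% of all genes and 19.9% of the listed genes that entered the test over both days. AAGATGGC, letters of the YY1 element, was present on either strand in 6 members (10.2%), against 3.19% of all genes and 5.28% of the listed genes that entered that test. These letters were chosen after the windows had been read, and their presence is a description of sequence.

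The libraries held 14345379 to 21461835 gene counts. Ythdf2, the targeted gene, stood at 82.8 and 76.0 CPM in the day 6 EtOH libraries and at 208 and 204 CPM in the libraries labelled 4-OHT, and at 76.0 and 167 CPM at day 4. The day 6 difference was 1.37 on the log2 scale (edgeR adjusted p = 0.0024), against the direction of a deletion. Counts per gene do not separate the floxed part from the rest, so 4-OHT below means the library labelled 4-OHT, and no direction is read as that of Ythdf2 loss. The summed level of 5 intestinal stem cell markers was 5063 to 5369 CPM in EtOH and 3238 to 3349 CPM in 4-OHT at day 6, and 4423 and 3747 CPM at day 4. Most of that difference was in Olfm4, at 3304 and 2244 CPM in EtOH and 1320 and 984 CPM in 4-OHT at day 6, and 1479 and 864 CPM at day 4. Without Olfm4 the sums of the other 4 overlapped at day 6, at 2064 and 2820 CPM in EtOH and 2029 and 2254 CPM in 4-OHT, and were 2944 and 2884 CPM at day 4. The summed level of 5 enterocyte markers was 946 to 960 CPM in EtOH and 2339 to 2774 CPM in 4-OHT at day 6, and 712 and 925 CPM at day 4. The sum of 3 Paneth cell markers was 638 to 985 CPM in EtOH and 871 to 2184 CPM in 4-OHT at day 6, and 125 and 620 CPM at day 4. The sum of 5 epithelial markers was 5558 to 5821 CPM in EtOH and 6733 to 7032 CPM in 4-OHT at day 6, and 4656 and 5846 CPM at day 4. The sum of 3 tuft cell markers was 14.8 to 25.9 CPM against 5.62 to 7.72 CPM at day 6, and 7.64 and 5.09 CPM at day 4. Goblet cell markers (4 genes) summed to 2864 and 3119 CPM in EtOH and 2421 and 2265 CPM in 4-OHT at day 6, and 1863 and 2129 CPM at day 4. Enteroendocrine markers (3 genes) summed to 338 and 275 CPM against 566 and 288 CPM at day 6, and 46.7 and 204 CPM at day 4. No marker of these lists was at 0 in all libraries. Mesenchymal and immune markers each summed to at most 1.09 CPM in every library. The day 6 and day 4 libraries carry separate runs of library name numbers, so day and library preparation cannot be told apart.

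The 81 genes took a lower share of the counts in 4-OHT than in EtOH at both days, and at day 6 the means differed by less than the spread between the EtOH replicates. The share was 8.43% and 6.69% in the EtOH libraries of day 6 (replicates 1 and 2) and 6.17% and 6.66% in the 4-OHT libraries. At day 4 it was 6.81% in EtOH and 6.14% in 4-OHT. EtOH replicate 1 stood above the other 5 libraries, and EtOH replicate 2 lay next to 4-OHT replicate 2 of the same day. Group means at day 6 were 7.56% ± 1.23 in EtOH and 6.42% ± 0.352 in 4-OHT (SD, n = 2 each). In bulk RNA of sorted cells, fewer cells of a type and less RNA per cell cannot be told apart. The stem (through Olfm4), enterocyte, epithelial and tuft marker sums given above moved with the treatment at both days. Goblet sums were lower in 4-OHT at day 6 and higher at day 4, and the Paneth and enteroendocrine sums overlapped between treatments at day 6. The part of any of these cell types in the shares was not tested.

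**Figure D1:**
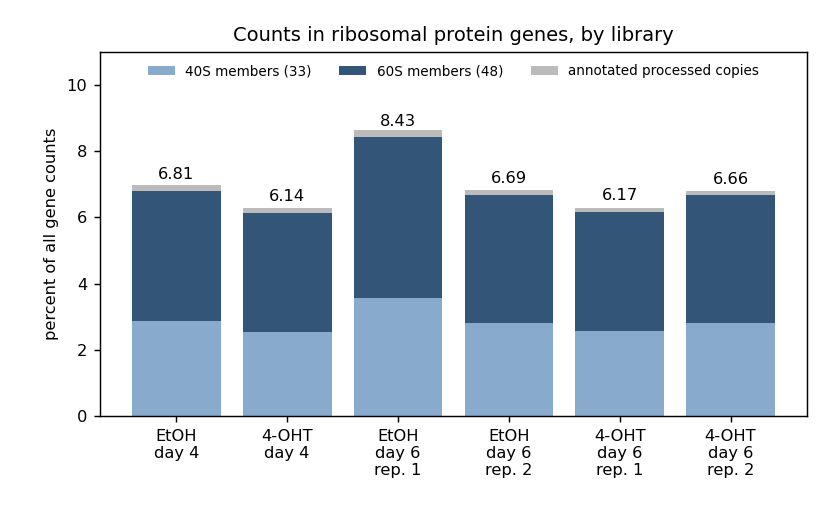
Percent of all gene counts in 33 members named for the 40S subunit (light) and 48 named for the 60S subunit (dark) in each of the 6 libraries. Grey is the annotated processed copies of genes meeting the symbol rule, and the number over each bar is the share in the 81 members. EtOH replicate 1 of day 6 is the highest at 8.43%, and the other 5 libraries lie between 6.14% and 6.81%.

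The order of the treatments in each day was the same with the counts of annotated processed copies added. The GENCODE annotation held 1895 pseudogenes with at least 80% identity, over at least 50% of their length, to a transcript of a gene meeting the symbol rule. These include copies of genes below the CPM level, such as Rps10 and Rpl24, and 1025 of the 1895 had counts. Together they held 2.13% to 2.48% of the reads of members and copies combined. With them added, the shares became 8.63% and 6.84% (EtOH day 6), 6.30% and 6.81% (4-OHT day 6), 6.97% (EtOH day 4) and 6.30% (4-OHT day 4). Reads that mapped to several places stood in a summary line and in no gene, and were 4.65% to 5.77% of all entries, so the copies' full effect on the counts is not measured by these values.

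At day 6, 80 of the 81 members had a lower level in 4-OHT than in EtOH, and no member passed the test. The median difference over the members was -0.24 on the log2 scale, beside -0.01 over all 14066 genes tested, and 51.9% of all genes were lower. In edgeR's quasi-likelihood test with Benjamini-Hochberg adjustment over all genes, 0 members had an adjusted p under 0.05, where 2.15% of all genes did, 0.171% of all genes with a lower level. With DESeq2 the count was also 0. Without adjustment 1 member (Rps23rg1) was under 0.05, beside 10% of all genes. Both 4-OHT libraries lay below both EtOH libraries for 16 of the 81 members (18.4% of all genes) and above them for 1 (20.4% of all genes), and for 64 members the groups overlapped. The share of members without overlap towards lower levels was near that of all genes.

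The size of the shift moved with single libraries. The median member stood 0.37 higher (log2) in EtOH replicate 1 than in EtOH replicate 2, and 79 of the 81 were higher there. In 4-OHT the median member was 0.16 lower in replicate 1 than in replicate 2. Of the 81 members, 73 had their highest level of all 6 libraries in EtOH replicate 1, where 26.5% of all genes did. Without that library the median difference at day 6 was -0.04 and 51 members were lower. Without EtOH replicate 2 it was -0.41, and without either 4-OHT library it was -0.15 (replicate 1 left out) or -0.31 (replicate 2 left out). Corrected for each library's trend on transcript length and GC content it was -0.07, with 67 members lower, beside 0.10 for all genes.

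**Figure D2:**
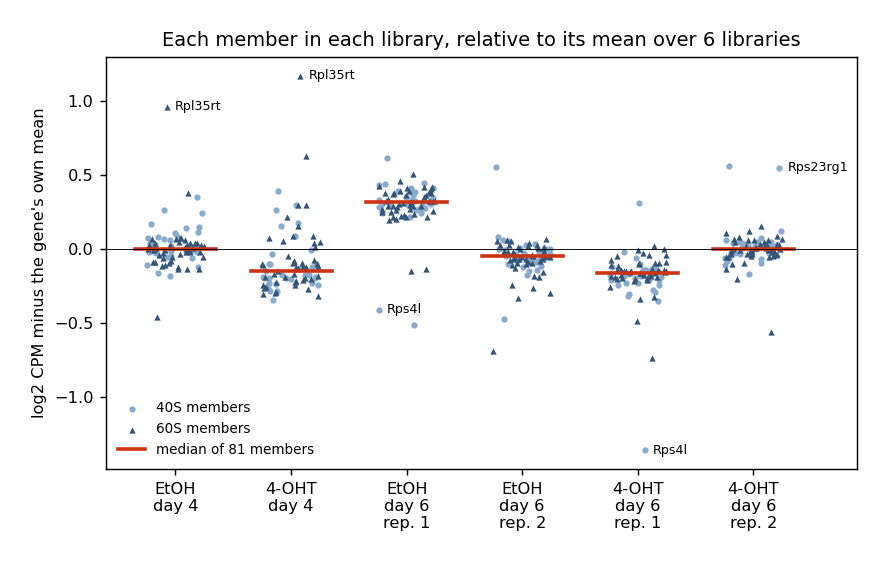
Each of the 81 members (circles 40S, triangles 60S) in each library as log2 CPM minus the gene's own mean over the 6 libraries, with the median as a red line. The median of EtOH replicate 1 of day 6 is 0.32 and those of the other libraries lie between -0.16 and 0.00; Rpl35rt stands high in both day 4 libraries and Rps4l low in both replicate 1 libraries of day 6.

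The acidic stalk of the 60S subunit, which recruits elongation factors, is made of Rplp0, Rplp1 and Rplp2. Rplp0 had 3658 and 2922 CPM in EtOH and 2504 and 2707 CPM in 4-OHT at day 6, and 2784 and 2396 CPM at day 4. All 3 libraries of 4-OHT lay below all 3 of EtOH for Rplp0, an order that was not counted over all genes. Its day 6 difference was -0.34 ± 0.18 (log2, SE), with an edgeR adjusted p of 0.636. Rplp1 had 1701 and 1213 CPM in EtOH and 1103 and 1276 CPM in 4-OHT, so the groups overlapped, and differed by -0.30 ± 0.21 (edgeR adjusted p = 0.761). Rplp2 had 647 and 467 CPM against 437 and 486 CPM, also overlapping, and differed by -0.27 ± 0.20 (edgeR adjusted p = 0.770).

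Among the members named for the 40S subunit the median difference at day 6 was -0.26. Rpsa, which binds the outer face of the small subunit and was first described as a laminin receptor, had 3660 and 2544 CPM in EtOH and 2481 and 2769 CPM in 4-OHT. The groups overlapped, and the difference was -0.24 ± 0.21 (edgeR adjusted p = 0.822), with the opposite sign (0.04) without EtOH replicate 1. Rps6, the substrate of the S6 kinases, had 1457 and 1257 CPM against 1187 and 1312 CPM and differed by -0.12 ± 0.18 (edgeR adjusted p = 0.915). Rps14 (-0.26 ± 0.19) and Rps19 (-0.32 ± 0.20), whose loss of a gene copy causes human anaemias, had edgeR adjusted p of 0.775 and 0.713. Rps26, a protein at the messenger RNA exit, had 944 and 708 CPM in EtOH and 622 and 656 CPM in 4-OHT, groups that did not overlap. It differed by -0.37 ± 0.19 (edgeR adjusted p = 0.611), the second lowest value of the members after Rps27rt (-0.38 ± 0.30, edgeR adjusted p = 0.797), a retrotransposed copy of Rps27.

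Among the members named for the 60S subunit the median was -0.21. Rpl5 and Rpl11, which bind the 5S ribosomal RNA and can hold back Mdm2 when assembly fails, differed by -0.20 ± 0.18 and -0.18 ± 0.20 (edgeR adjusted p = 0.827 and 0.879). Rpl5 had 1617 and 1442 CPM in EtOH and 1256 and 1405 CPM in 4-OHT, without overlap, and Rpl11 had 1114 and 830 CPM against 810 and 911 CPM, with overlap. Rpl5 shares 49.8% of its exon bases with Dipk1a on the opposite strand. The strand setting of the counting is not given in the sources used here, so how reads on the shared bases were counted is not known. Reads ambiguous between genes stood in a summary line and in no gene, and were 5.28% to 5.88% of all entries. Rpl3, next to the peptidyl transferase centre, differed by -0.14 ± 0.19, and Rpl10, which joins the subunit last, by -0.22 ± 0.18 (edgeR adjusted p = 0.902 and 0.816). Rpl36a had 297 and 244 CPM in EtOH and 218 and 219 CPM in 4-OHT, and differed by -0.31 ± 0.17 (edgeR adjusted p = 0.646). Its groups did not overlap, and its 4-OHT libraries were nearly equal. Rpl19, at -0.36 ± 0.20 (edgeR adjusted p = 0.648), had the lowest value of the 60S members. Rpl7 (-0.16 ± 0.19), Rpl39 (-0.18 ± 0.19) and Rpl7l1 (-0.18 ± 0.17) lay nearer to 0, as did Rpl22 (-0.09 ± 0.18) and Rpl38 (-0.10 ± 0.20), the smallest differences below 0. Each of these 5 had a difference above 0 without EtOH replicate 1.

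The 1 member with a higher level in 4-OHT at day 6 was Rps23rg1, a retroposed copy of Rps23 known to be transcribed against the direction of its parent and to encode a protein that is no part of the ribosome. Its annotated transcript aligned with that of Rps23 on the opposite strand, at 99.5% identity over 418 of its 1835 bases. It had 3.71 and 3.83 CPM in EtOH and 6.65 and 7.87 CPM in 4-OHT at day 6, and 5.18 and 6.04 CPM at day 4. The day 6 groups did not overlap. The day 6 difference was 0.94 ± 0.31, with an edgeR adjusted p of 0.239. With a replicate block and the length and GC correction together it was 1.05 with an edgeR adjusted p of 0.0444, the 1 setting tried that called it. These are 66 to 147 counts per library.

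At day 4, with 1 library per treatment and so no test, the shift was split by gene. Of the 81 members, 61 were lower in 4-OHT and 20 higher, with a median of -0.17 beside -0.01 over all 14060 genes. By more than 0.1 on the log2 scale, 50 of the 81 members were lower (38.2% of all genes) and 16 were higher (35.6% of all genes). Among the lowest were Rps18 (724 CPM in EtOH, 561 CPM in 4-OHT, log2 difference -0.38) and Rps7 (1077 and 849 CPM, -0.36). The highest were Rpl38 (89.0 and 117 CPM, 0.38), Rpl35 (27.7 and 35.3 CPM, 0.33) and Rps21 (268 and 334 CPM, 0.30).

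**Figure D3:**
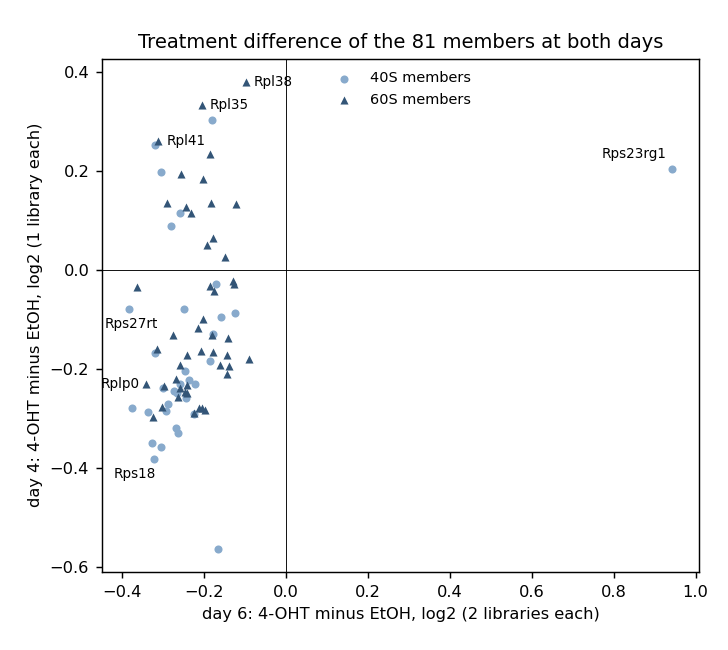
Difference between 4-OHT and EtOH (log2) of each member at day 6 (horizontal axis, 2 libraries per treatment) against day 4 (vertical axis, 1 library per treatment), circles for 40S and triangles for 60S members. All members but Rps23rg1 lie left of 0 at day 6, while 20 members lie above 0 at day 4, among them Rpl38, Rpl35 and Rpl41.

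The day 4 difference varied with coding length. Of the 9 members with a coding region of at most 300 bases, 1 was lower in 4-OHT at day 4 and the median was 0.20. Of the 30 members between 300 and 450 bases, 21 were lower with a median of -0.13. Of the 17 members between 450 and 600 bases, 16 were lower with a median of -0.25, and of the 22 between 600 and 900 bases, 20 were lower with a median of -0.21. Across the 81 members the day 4 difference and log2 coding length had a Pearson correlation of -0.51 (Spearman -0.46), points that share the same 2 libraries. With the length of the canonical transcript in place of the coding region the correlation was -0.17. In other protein-coding genes the medians of the 5 length classes, from short to long, were 0.18, 0.06, 0.02, 0.01 and -0.02, and the correlation was -0.06 (Spearman -0.07, n = 12193). At day 6 the 9 short members had a median of -0.28 and all 9 were lower, and the correlation over the members was 0.05. The use of coding length was decided after the day 4 values had been seen.

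**Figure D4:**
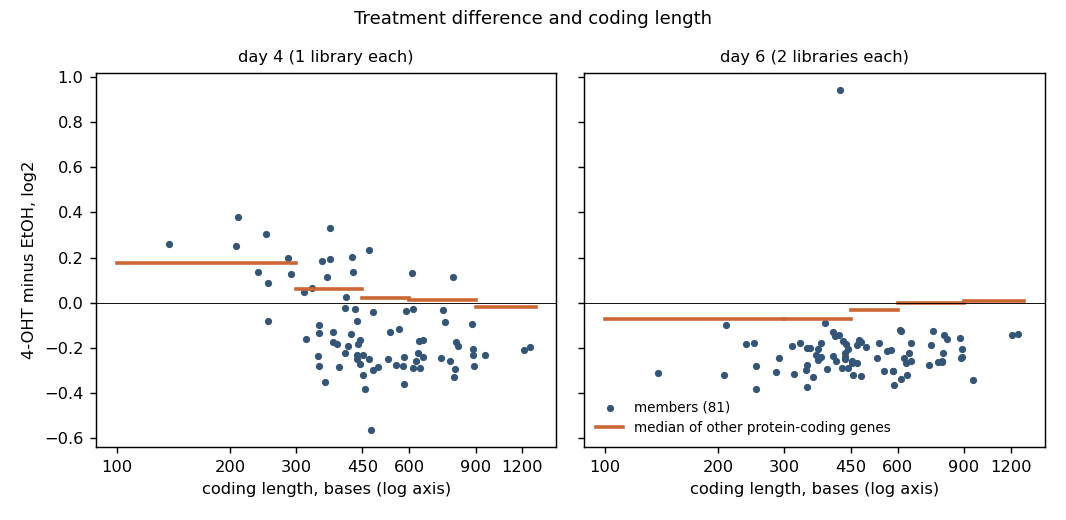
Difference between 4-OHT and EtOH (log2) of each member (dots) against its coding length on a log axis, at day 4 (left) and day 6 (right); orange bars are medians of other protein-coding genes in the same length classes, the first class holding all genes up to 300 bases and the last all over 900. At day 4 the members of at most 300 bases have a median of 0.20 and those of 600 to 900 bases of -0.21, while at day 6 both classes lie below 0.

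With the day 4 pair taken in and day as a term, 79 of 81 members were lower in 4-OHT and none was called. The median was -0.19, beside -0.01 for all 14060 genes, and the edgeR test called 3.98% of all genes at an adjusted p under 0.05, 0.626% with a lower level. DESeq2 also called 0, with 14 members under 0.05 without adjustment, and its share over all genes was not counted. In edgeR 8 members were under 0.05 without adjustment, beside 15.8% of all genes. Among them were Rps23rg1, with a higher level, and Rps18, Rps20, Rps26, Rpl21, Rps7 and Rplp0, with lower levels. The lowest values were those of Rps26 (-0.34 ± 0.13), Rps18 (-0.33 ± 0.13) and Rps20 (-0.33 ± 0.13), with edgeR adjusted p of 0.262, 0.261 and 0.269. Rps18 had 758, 587 and 724 CPM in the EtOH libraries and 501, 579 and 561 CPM in the 4-OHT libraries, and Rps20 had 854, 654 and 732 CPM against 568, 638 and 580 CPM. In both genes all 3 libraries of 4-OHT lay below all 3 of EtOH. Other members, among them Rplp0, Rps26 and Rps7, had the same order, and it was not counted over the members or over all genes. The highest values were those of Rps23rg1 (0.70 ± 0.25, edgeR adjusted p = 0.192), Rpl38 (0.07 ± 0.17) and Rps21 (-0.01 ± 0.16). Without EtOH replicate 1 of day 6 the median over the members was -0.07. The test shares the 4 day 6 libraries with the day 6 comparison.

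Whether the 4-OHT difference itself changed between the days was tested as an interaction, and no gene of 16031 passed in edgeR (0.0% called). DESeq2 called 6 genes and no member. At an unadjusted p under 0.05 there were 0 members in edgeR, beside 1.83% of all genes. The median of day 6 difference minus day 4 difference was -0.07 over the members. It was 0.13 without EtOH replicate 1, 0.03 without 4-OHT replicate 1 and -0.26 without EtOH replicate 2 of day 6, so its sign changed with single libraries. The lowest members were Rpl41 (-0.60 ± 0.42), Rps28 (-0.60 ± 0.33) and Rpl35 (-0.56 ± 0.38), and among the highest were Rps23rg1 (0.71 ± 0.54) and Rpl22 (0.07 ± 0.32). Rpl41, the shortest ribosomal protein, had 848.5 and 502 CPM (EtOH) and 503 and 589 CPM (4-OHT) at day 6, and 642 and 776 CPM at day 4.

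Between the days 1 member passed the test. The day 4 libraries also had more counts outside genes, 6.19% and 6.70% of entries against 2.63% to 3.76% at day 6, and the part of this in the day differences was not tested. With treatment as a term, 62 members were higher and 19 lower at day 6 than at day 4, with a median of 0.10 beside 0.02 for all 14737 genes, and without EtOH replicate 1 of day 6 it was 0.01. With the length and GC correction it was 0.10 beside 0.13 for all genes, so the members then lay below the median gene. Members with coding regions of at most 300 bases had a median of -0.12 (7 of 9 lower). Those of 600 to 900 bases had 0.20 (3 of 22 lower). The Pearson correlation of the day difference with log2 coding length was 0.34 over the members and -0.25 over other protein-coding genes. The edgeR test called 1 of the 81 members, Rpl35rt, where it called 0.441% of all genes, 0.17% with a lower level. Without adjustment 5 members were under 0.05 (12.7% of all genes). All 4 day 6 libraries lay above both day 4 libraries for 7 members (background 9.74%), among them Rps6, Rpl7 and Rps2, and below for 2 (background 10.8%), Rpl35rt and Rpl23a. Rps6 (0.33 ± 0.13) and Rpl7 (0.35 ± 0.14) were the highest after Rpl35 (0.44 ± 0.20), with edgeR adjusted p of 0.323, 0.334 and 0.395. Rpl23a had 7.44 to 9.53 CPM at day 6 and 13.6 and 16.2 CPM at day 4, a difference of -0.76 ± 0.20. Its adjusted p was 0.155 in edgeR and 0.0466 in DESeq2. Its exons overlap Tlcd1 on the opposite strand over 78.1% of their bases.

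Rpl35rt is a retrotransposed copy of Rpl35, a 60S protein at the exit of the nascent chain tunnel. On GRCm39 in the GENCODE annotation Rpl35 lies at chr2:38891591-38895637 and Rpl35rt at chr1:156193610-156194054. The whole annotated transcript of Rpl35rt, 445 bases, aligned with that of Rpl35 at 99.6% identity, with 2 mismatches. Rpl35rt had 58.5 and 40.3 CPM (EtOH) and 38.98 and 44.1 CPM (4-OHT) at day 6, and 127 CPM (EtOH) and 146 CPM (4-OHT) at day 4. The day 4 libraries stood above all day 6 libraries, and the difference was -1.59 ± 0.17 (edgeR adjusted p = 0.00469). Rpl35 itself had 54.4 and 37.0 CPM (EtOH) and 37.0 and 42.6 CPM (4-OHT) at day 6, and 27.7 CPM (EtOH) and 35.3 CPM (4-OHT) at day 4, so it was lower where its copy was higher. Of the counts of the pair, Rpl35rt held 50.9% to 52.1% in each day 6 library and 82.0% (95% exact binomial interval 80.6 to 83.4) and 80.6% (79.0 to 82.0) in the day 4 libraries. The summed level of the pair was 76.0 to 113 CPM at day 6, and 154 and 182 CPM at day 4. The call for Rpl35rt was lost with the length and GC correction (edgeR adjusted p = 0.0603) and without the day 4 library of 4-OHT (0.0651).

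**Figure D5:**
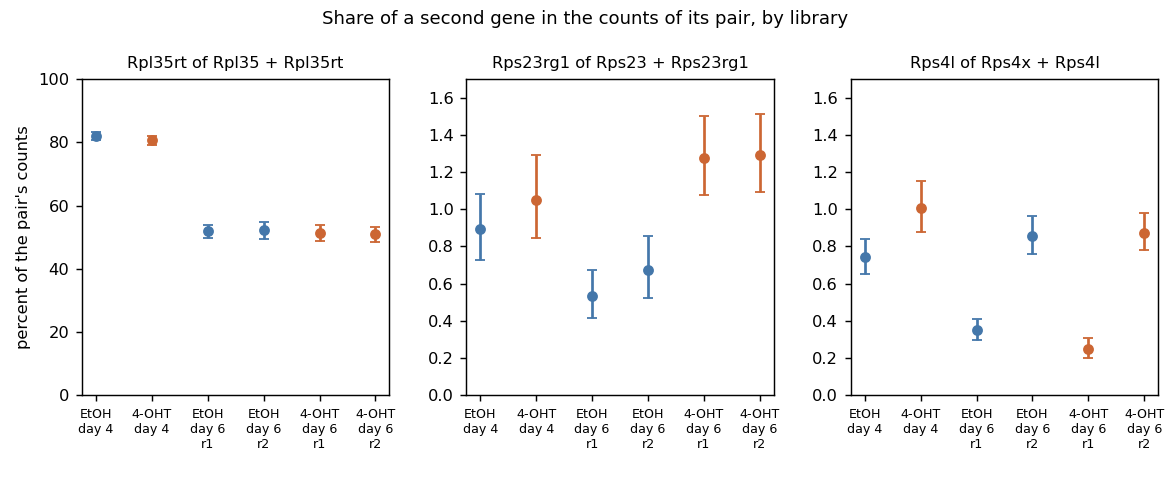
Percent of a pair's counts held by the second gene in each library, with exact 95% binomial intervals that cover counting error only, blue for EtOH and orange for 4-OHT; the left axis runs to 100% and the other 2 axes to 1.7%. Rpl35rt holds 50.9% to 52.1% of its pair at day 6 and 80.6% to 82.0% at day 4, Rps23rg1 is higher in 4-OHT at day 6, and Rps4l is low in both replicate 1 libraries of day 6.

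In the other pairs of close relatives the second gene held a small share. Rps27rt, whose transcript matched that of Rps27 at 100% over 345 bases, held 3.94% to 5.78% of its pair in every library. Rps4l, a relative of the X-linked Rps4x with 79.7% transcript identity, differed between replicates more than any other member at day 6. It had 8.10 and 15.9 CPM in EtOH, 4.14 and 16.01 CPM in 4-OHT, and 13.0 (EtOH) and 14.2 CPM (4-OHT) at day 4. In both treatments the replicate 1 library of day 6 was the low one, and the share of the pair was 0.350% and 0.250% in those against 0.743% to 1.01% in the other 4. Its treatment difference at day 6 was -0.26 ± 0.54. Rpl22l1, which can stand in for Rpl22, held 2.83% to 3.73% of its pair and differed by -0.23 ± 0.25 at day 6. Rpl7l1 held 6.04% to 7.90% of its counts with Rpl7.

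The relatives known from other tissues were near or at 0. Rpl10l and Rpl39l, which serve in the testis, had 0 counts in every library and 1 count in each day 4 library, respectively. Rpl3l, a gene of striated muscle, had 0 to 6 counts per library against 25933 to 47997 for Rpl3. Rpl36al had 2 to 19 counts per library, at most 0.404% of its counts with Rpl36a. Rpl24 and Rps10, core ribosomal proteins, were below the level the rule requires. Their annotated processed copies held 94.7% and 82.98% of the counts of gene and copies combined, and they share 56.0% and 23.8% of their exon bases with other annotated genes. The part of either in the low level was not tested. Among the members the copies' part was highest for Rpl23a (53.1%), Rpl34 (45.8%) and Rpl13a (36.2%), and the median member had 1.74%.

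Members were ranked by level per length, while the shares of pairs and of copies given above are of counts not scaled by length. Per kilobase of coding sequence the median member had 1609 CPM, and 62 of 81 lay within 2-fold of it. The highest were Rpl41, Rplp1 and Rps2, at 4664, 3750 and 3491 per coding kilobase, and the lowest Rps23rg1, Rps4l and Rpl23a, at 13.1, 15.1 and 23.2. The 8 members more than 10-fold below the median were Rps23rg1, Rps4l, Rpl23a, Rpl13a, Rpl22l1, Rps27rt, Rpl35 and Rpl7l1. Per kilobase of all annotated exons the order changed, with Rplp1 (2185), Rps2 (1667) and Rps3a1 (1378) the highest and Rps23rg1 (1.57), Rpl23a (6.15) and Rpl13a (6.91) the lowest. Across members the number of annotated copies had a correlation of 0.10 with the log level per coding kilobase (n = 81).

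Genes that work with these proteins were described by list at day 6, and none of those named here passed the test for treatment there. Rack1, a ribosomal component under another symbol, had 2870 and 2305 CPM in EtOH and 2083 and 2295 CPM in 4-OHT (-0.25 ± 0.19, edgeR adjusted p = 0.782). Of 18 other messages with a terminal pyrimidine tract, 16 were lower at day 6 with a median of -0.09, among them Eef1a1 (-0.03 ± 0.16), and Eef2 was higher (0.05 ± 0.17), both elongation factors. Of 34 ribosome biogenesis genes, 27 were lower with a median of -0.09 at day 6 and 14 were lower with a median of 0.06 at day 4. Nop56, a box C/D ribonucleoprotein component, differed by -0.32 ± 0.20 and the nucleolar protein Ncl by 0.11 ± 0.19. The 78 mitochondrial ribosomal proteins had a median of -0.03 with 46 lower, Mrpl12 and Mrpl38 at -0.02 ± 0.21 and -0.05 ± 0.18. At day 6 the summed levels of the biogenesis and mitochondrial lists were highest in EtOH replicate 1 and lowest in EtOH replicate 2. The biogenesis sums were 4820 and 3866 CPM in EtOH and 4346 and 4076 CPM in 4-OHT. Those of the mitochondrial list were 4264 and 3309 CPM against 3642 and 3833 CPM. Of 53 initiation factors tested, 34 were lower with a median of -0.05. The 22 tested genes of mTORC1 and stress control had a median of 0.00 with 11 lower, Larp1 at -0.16 ± 0.17 and Eif4ebp2 at -0.01 ± 0.17. Over all genes the median was -0.01 at both days, with 51.9% lower at day 6. None of these lists had a member with an edgeR adjusted p under 0.05 at day 6 (background 2.15%).

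Between the days, 17 of the 18 other tract messages were higher at day 6 with a median of 0.19, and 61 of the 78 mitochondrial ribosomal proteins with a median of 0.11. None of these was called in edgeR. Over all genes the median was 0.02, with 46.8% lower at day 6. Other protein-coding genes with coding regions of 300 to 900 bases had class medians of 0.11 to 0.14. Those of at most 300 bases had a median of 0.08, and those of over 900 bases had -0.0019. The part of length in these values was not tested. In the initiation factor list 1 gene was called, Eif3j2, which has a close relative in Eif3j1. It had 13.3 to 16.3 CPM in the day 6 libraries and 0.87 and 1.49 CPM in the day 4 libraries, a difference of 3.71 with an edgeR adjusted p of 0.000485. Like Rpl35rt it separated the 2 sets of libraries by day in both treatments. Day, library preparation and any difference in source mice between the 2 sets cannot be told apart.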

How the data were processed

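The 6 libraries were grouped by the treatment and day in their labels. Per the labels' protocols, RNA was selected with oligo-dT beads, fragmented and primed with random hexamers. The authors deposited whole-number counts per gene, not normalized, with 4 summary lines that stayed out of totals and tests and held 19.3% to 26.7% of entries. Per the submitters' processing notes, STAR and the mm39 build were used, while the STAR version, annotation release and strand setting are not given in the sources used here. Reads mapping to several places are in no gene, which lowers the counts of genes with close copies. Reads ambiguous between genes are also in no gene. Symbols, coordinates and lengths were taken from GENCODE M39 (GRCm39), where 56323 of 56884 gene IDs were found, with 99.96% of counts.

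Counts were tested with edgeR 4.0.16 (quasi-likelihood F test, TMM scaling, filterByExpr with a minimum count of 10, Benjamini-Hochberg over all genes tested) in R 4.3.3, and with DESeq2 1.42.0 as an alternative. SE is the absolute log2 fold change over the square root of F. CPM are TMM-scaled except in shares, mean levels and levels per length. Day 4 differences used a prior count of 2. The day 6 test used 4 libraries, the tests of treatment over both days, of day and of the interaction all 6. Processed copies were found with blastn 2.17.0. The statistics were tested on simulated data. Intervals cover counting error only, since no molecular identifiers are mentioned. Chi-square per degree of freedom between the day 6 replicates was 23.6 (EtOH) and 16.5 (4-OHT), so the replicates of a group were counted separately; other pairs of libraries were not compared.

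The members, gene lists and tests were chosen with earlier results of these data known. Named genes were a fixed list of members (stalk, assembly and disease genes, paralogue pairs), members past the test, the 3 highest and 3 lowest in each comparison and by level per length, those next to the CPM level and, from other lists, genes past the test or at most 2 of the highest level. Rps29, Rpl21, Rpl18, Rpl28, Rpl35a and Rpl34 were named after their values were seen. Chosen after the values had been seen were leaving out Rps3a2 and Rpl37rt (annotated pseudogenes without that suffix, which would give 83 genes), coding length, the 0.1 threshold at day 4 and the sequence motifs. The alternatives were other scalings, no filter, DESeq2, a length and GC correction, a replicate block, and each library left out in turn. Values of some genes are not reported here.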

Additional observations from a re-analysis of the deposited data

Results flagged for a closer look

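Both 4-OHT libraries of day 6 lay below both EtOH libraries for 16 of the 81 members (18.4% of all genes). For 3 of these the day 4 pair went the other way, and how many of all genes did so was not counted. The day 6 difference minus day 4 difference of these 3 was -0.45 for Rpl23a, -0.53 for Rps29 and -0.60 for Rps28 (log2). Values below 0 follow from how they were picked. For Rpl23a the groups were barely apart at day 6, at 9.16 CPM in the lower EtOH library and 9.05 CPM in the higher 4-OHT library. Rps29 and Rps28 have coding regions of at most 300 bases, and Rps28 and Rpl23a share exon bases with a gene on the opposite strand. At day 4 there was 1 library per treatment, and the edgeR interaction test called no gene, so a difference between the days was not shown for them.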

How the results depend on the processing

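At day 6, 0 members were called under every scaling, filter and tool tried except a replicate block with the length and GC correction, which called 1 (Rps23rg1, 1.05, edgeR adjusted p = 0.0444). Over all genes the day 6 count was 302, and 725 with no filter, 502 with DESeq2, 816 with a replicate block and 1154 with the block and the correction. Over both days it was 560, and 1150 with no filter, 857 with DESeq2 and 305 to 637 with 1 library left out. Between the days it was 65, and 832 with no filter, 325 with DESeq2, 2 with the length and GC correction and 22 to 459 with 1 library left out, and members called were 1, and 2 with no filter or DESeq2 (Rpl23a added), 0 with the correction and 0 to 1 with 1 library left out. For the interaction it was 0, and 36 with no filter, 6 with DESeq2, 1 with robust fitting and 0 to 31 with 1 library left out. The causes were not tested.

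With 1 library left out, members lower at day 6 ran from 51 to 80 with medians of -0.41 to -0.04, and the interaction median ran from -0.26 to 0.13 with 19 to 78 members lower. Day 6 values of single members then ran from -0.38 to 0.051 (Rpl11), -0.22 to 0.052 (Rpl22), -0.32 to 0.063 (Rpl3), -0.35 to 0.21 (Rpl38), -0.37 to 0.030 (Rpl39), -0.32 to 0.014 (Rpl7), -0.36 to 0.016 (Rpl7l1), -0.72 to 0.058 (Rps27rt) and -0.48 to 0.044 (Rpsa). Over both days they ran from -0.10 to 0.29 (Rpl38) and -0.18 to 0.17 (Rps21), between the days from -0.82 to 0.011 (Rps4l), and in the interaction from -0.071 to 0.22 (Rpl22). With the length and GC correction, alone and with the block, Rpl22 was at 0.11 and 0.11, Rpl38 at 0.16 and 0.16, and Rps6 at 0.036 and 0.035 at day 6. With a replicate block Rps21 was at 2.8e-05 over both days. The labels do not state that replicate numbers pair the libraries. Deviations of same-numbered day 6 libraries had a correlation of 0.27 over all genes and 0.72 over the members, with 2 pairs only. Rps4l was the lowest member in both, at -0.96 (EtOH) and -1.92 (4-OHT) for replicate 1 minus replicate 2 (log2). No correlation without Rps4l was computed. The median member went opposite ways, at 0.37 in EtOH and -0.16 in 4-OHT. The median over members was -0.23 with the block at day 6 and -0.21 over both days, with 0 members called in each.

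The day 4 shares were 6.30% and 6.97% with copies and 6.38% and 7.10% without mitochondrially encoded genes (4-OHT and EtOH). The median level per kilobase was 215 over all exons, 624 over the canonical transcript and 1609 over the coding region. With Rps3a2 and Rpl37rt added, 82 of 83 genes were lower at day 6 with a median of -0.24. Over the 61 members with under 15% exon overlap the median was -0.25, and their day 4 correlation with coding length was -0.56, while with exon length of all annotated exons it was -0.24 over the 81. Day 4 has 1 library per treatment, and its differences have no replicate check.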
